A study of Homo sapiens with 12 samples.

Results

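The response of SLFN11-positive cells to camptothecin was read from 6 of the 12 RNA libraries of the series, chosen by their labels. All came from the parent line of CCRF-CEM, a human T lymphoblast leukemia cell line whose genotype is labelled wild-type. The 3 treated libraries came from cells given camptothecin at 100 nM for 4 h, and the 3 control libraries from cells given the solvent DMSO. Both groups grew in RPMI1640 with 10% fetal bovine serum. Whether a group's libraries are separate cultures is not labelled, and the p-values therefore reflect library spread alone, possibly of technical origin. The other 6 libraries, from SLFN11 knockout cells with the same treatments, entered the model for its estimate of spread and are not described. The comparison asks which RNAs differ in parent cells after 4 h of the drug.

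Camptothecin traps DNA topoisomerase I on the DNA strand it has nicked, and the trapped enzyme blocks replication forks and elongating RNA polymerase. SLFN11, a putative helicase found at stressed replication forks, sensitizes cancer cells to such drugs. Cells under this kind of stress activate MAP kinases and NF-kappaB, and the genes they switch on first are the immediate early genes, which are short and encode transcription factors such as FOS, JUN and EGR1 and the phosphatases that shut the kinases off again. Lymphocytes use the same genes when an antigen or a cytokine stimulates them.

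The treated libraries held 63606344, 61421790 and 53677307 exon reads. DMSO replicate 1 held 135592046, against 55066838 and 48632120 in DMSO replicates 2 and 3. That deep library also differed from its group: its counts gave a chi-square, divided by the degrees of freedom, of 173 and 137 against DMSO replicates 2 and 3, where those 2 gave 10.6 and treated pairs 4.71 to 5.39. Introns took 28.74% to 29.79% of gene reads in treated libraries and 26.31% in DMSO replicate 1, against 29.69% and 30.32% in the other DMSO libraries. T lymphoblast markers were present in all libraries, and 20 of the 26 measured were lower with camptothecin and 0 higher. Over all tested genes 17.1% were lower and 16.8% higher, and the marker counts in this paragraph are to be read against these shares. The summed level of the T lymphoblast markers, as exon reads scaled to a common library size (CPM), was 2230 to 2240 CPM in treated cells and 3080 to 3320 CPM in DMSO cells. In these bulk samples fewer cells with an RNA and less RNA per cell cannot be told apart. Some B-lineage genes were also expressed: the list summed to 29.0 to 31.3 CPM in treated and up to 42.8 CPM in DMSO cells. Of these 5 genes 2 were lower, and in DMSO cells they ranged from PAX5 at 0.244 CPM to CD79A at 20.4 CPM. Markers of the remaining cell types were near 0. Myeloid genes summed to 1.46 to 1.54 CPM in treated and 0.732 to 0.936 CPM in DMSO cells, with 2 of 3 higher. Erythroid genes summed to 0.745 to 1.51 CPM in treated and 0.194 to 0.478 CPM in DMSO cells, with 1 of 4 higher. Epithelial and fibroblast genes summed to 2.32 to 3.21 CPM in treated and 1.94 to 2.68 CPM in DMSO cells, with 0 of 3 called; MS4A1, HBB and COL1A2 had no read in any of the 6 libraries. The part of any such cells in the results was not tested.

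Promoters of 4 genes are shown because these genes mark the extremes of the response and their starts hold letters read by well-known stress or cell cycle factors. Each runs from 250 bases before the annotated start to 50 bases after it, 5′ to 3′ on the gene's strand, from RefSeq on GRCh38.p14. Of the called genes that averaged 1 CPM or more and had separate groups, DUSP8 had the largest rise and PIF1 the largest fall; EGR1 is a classical immediate early gene, and HSPA6 is an inducible heat shock gene that fell. Capitals mark the cyclic AMP response element (TGACGTCA) in DUSP8, the CArG box, the site of serum response factor, in EGR1, the CHR element (TTTGAA) of cell cycle genes in PIF1, and the heat shock element, the site of heat shock factors, in HSPA6, each searched on both strands.
DUSP8: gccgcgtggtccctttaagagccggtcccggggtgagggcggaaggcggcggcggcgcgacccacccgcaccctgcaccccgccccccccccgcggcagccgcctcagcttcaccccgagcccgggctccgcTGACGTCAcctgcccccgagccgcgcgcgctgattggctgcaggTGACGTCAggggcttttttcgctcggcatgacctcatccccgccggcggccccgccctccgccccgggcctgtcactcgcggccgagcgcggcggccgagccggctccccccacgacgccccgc
EGR1: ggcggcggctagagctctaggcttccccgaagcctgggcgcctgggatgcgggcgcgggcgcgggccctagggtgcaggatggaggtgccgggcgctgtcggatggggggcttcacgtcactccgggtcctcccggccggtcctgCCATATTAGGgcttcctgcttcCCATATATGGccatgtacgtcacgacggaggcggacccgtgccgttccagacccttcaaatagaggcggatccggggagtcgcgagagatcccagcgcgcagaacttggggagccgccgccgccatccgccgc
PIF1: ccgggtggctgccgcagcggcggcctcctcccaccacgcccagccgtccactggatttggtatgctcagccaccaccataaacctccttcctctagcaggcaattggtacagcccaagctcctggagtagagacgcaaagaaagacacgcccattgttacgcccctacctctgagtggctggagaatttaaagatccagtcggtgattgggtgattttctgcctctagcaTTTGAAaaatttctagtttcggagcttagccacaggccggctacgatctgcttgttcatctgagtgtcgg
HSPA6: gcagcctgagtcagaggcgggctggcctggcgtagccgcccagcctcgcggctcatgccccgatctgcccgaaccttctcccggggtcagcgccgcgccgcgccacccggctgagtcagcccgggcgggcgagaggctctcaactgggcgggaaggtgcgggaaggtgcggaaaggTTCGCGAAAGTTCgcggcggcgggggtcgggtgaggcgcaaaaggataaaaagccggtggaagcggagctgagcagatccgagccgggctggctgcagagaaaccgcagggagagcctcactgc
The DUSP8 window (chr11:1572222-1572521, minus strand) holds 2 cyclic AMP response elements, whose first bases lie 118 and 74 bases before the start; 1.98% of 27305 RefSeq promoters of this length hold such an element. The EGR1 window (chr5:138465229-138465528, plus strand) holds 2 CArG boxes, 105 and 83 bases before the start, an element held by 1.29% of promoters, and also a CHR element at 29 bases. In PIF1 (chr15:64825598-64825897, minus strand) the CHR element lies 20 bases before the start, and 15.4% of promoters hold one; the mitotic kinase gene PLK1 has the same letters 29 bases before its start. In HSPA6 (chr1:161524290-161524589, plus strand) the heat shock element begins 74 bases before the start, and 0.487% of promoters hold one. Such matches describe the sequence and are not evidence of binding. Shares over the genes that rose or fell are not given, because only 44.2% of the 23546 tested genes had a promoter in the table, which leaves that check void.

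Camptothecin changed a large part of the transcriptome within 4 h. Of 23546 genes tested on exon reads, 3961 rose (16.8%) and 4017 fell (17.1%), together 33.9%, at a Benjamini-Hochberg adjusted p below 0.05 in edgeR's quasi-likelihood test. The counts given below for lists of genes are to be read against these shares. Most called changes were small: 1986 rises and 2065 falls were under 0.5 on the log2 scale, and 1404 and 1379 lay between 0.5 and 1. At least 2-fold changes were 571 rises (2.43% of tested genes) and 573 falls (2.43%). The extremes were uneven, since 47 genes rose by 3 or more on the log2 scale and 11 fell by as much. The 3 treated and the 3 DMSO libraries did not overlap in 10555 genes (44.8%), which includes many genes that were not called. With library size alone in place of TMM as the scale, the median change of all genes was 0.14 instead of 0.01 and 67.2% instead of 49.6% of calls were rises.

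DMSO replicate 1 carries more than its share of reads, and its weight was measured by leaving it out. Of the 3961 genes that rose, 3555 (89.8%) were still called higher without it, and of the 4017 that fell, 3587 (89.3%) were still called lower. Among the falls, DMSO replicate 1 was the highest DMSO library in 2754 genes (68.6%); among the rises it was the lowest in 1827 (46.1%). The change of the 218 named genes moved by a median of 0.11 on the log2 scale, and by under 0.3 in 206 of them. Without it 4609 genes rose and 4224 fell. With it kept but thinned at random to 38.2% of its exon reads, 3946 rose and 3960 fell, close to the main counts.

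**Figure D1:**
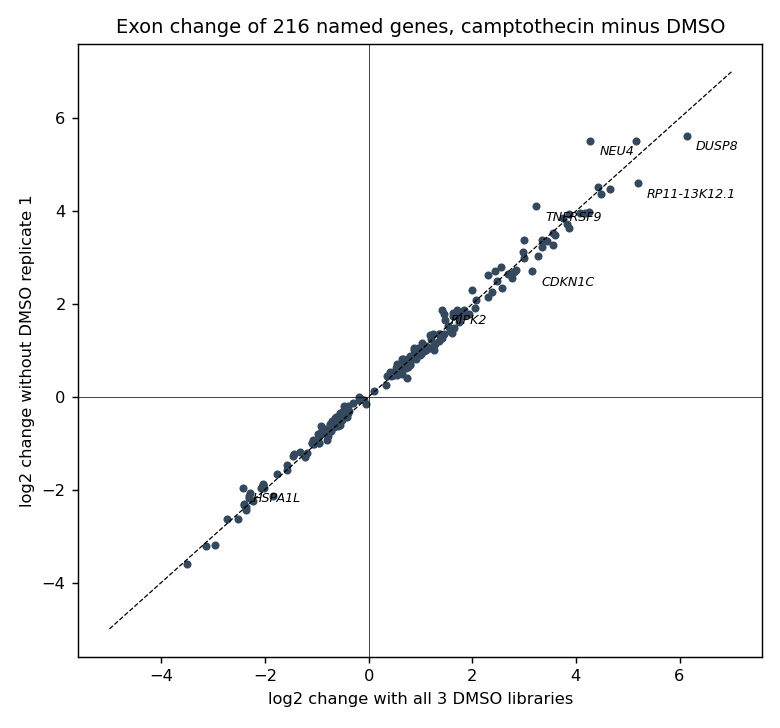
Log2 change of exon reads, camptothecin minus DMSO, with all 3 DMSO libraries (x axis) and without the deep DMSO replicate 1 (y axis). Each point is 1 of 216 named genes, the dashed line marks equal values, and the 7 genes that moved by 0.4 or more are labelled; IL2RA and RP11-13K12.5, with no DMSO read, are left out.

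The drug's target was checked first. TOP1, topoisomerase I (hg19 chromosome 20, 39657457 to 39753126), had 70.0, 69.6 and 84.7 CPM in treated cells, against 113, 83.6 and 79.8 CPM in DMSO replicates 1, 2 and 3. The groups overlapped, and its log2 change of -0.30 ± 0.26 (SE) was not called (edgeR adjusted p = 0.422). With no filter on low counts it was called lower (-0.32, adjusted p = 0.000541), and without DMSO replicate 1 the change was -0.13 (adjusted p = 0.8). SLFN11 (chromosome 17, 33677323 to 33700719) had 119, 123 and 119 CPM in treated cells and 117, 107 and 112 CPM in DMSO cells, a change of 0.10 ± 0.05 (adjusted p = 0.191). Without DMSO replicate 1 the SLFN11 change was 0.13 and passed the threshold (adjusted p = 0.0129). Each SE restates the test and adds no separate estimate of precision. Of the other schlafen genes measured, SLFN5 fell by 0.49 on the log2 scale (-0.31 without DMSO replicate 1), and SLFN12 and SLFN13 were not called.

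The remaining topoisomerases moved in both directions. Of 8 topoisomerase and tyrosyl-DNA phosphodiesterase genes, 3 rose and 3 fell, with a median of -0.34 (-0.12 without DMSO replicate 1) against 0.01 over all genes. TOP2A, the replicative topoisomerase II, had 412, 408 and 413 CPM in treated cells and 1189, 935 and 948 CPM in DMSO cells, a log2 change of -1.32 ± 0.08 (adjusted p = 2.36e-09). Every treated library lay below every DMSO library, and the DMSO library that stood apart was replicate 1. TOP2B fell by 0.61, and TDP1, the phosphodiesterase that removes trapped topoisomerase I from DNA, by 0.83 on the log2 scale. TOP3A rose by 0.60, TOP3B by 0.35 and TDP2, which acts on trapped topoisomerase II, by 0.35. Among 18 genes for the repair of trapped topoisomerase and single-strand breaks, 3 rose and 2 fell (median 0.02), and 8 rose without DMSO replicate 1. With all libraries that is 16.7% higher and 11.1% lower, no more than the 16.8% and 17.1% of all tested genes. SPRTN, a protease of DNA-protein crosslinks, rose by 0.65 ± 0.07 (adjusted p = 1.96e-06), and PARP1, the sensor of strand breaks, fell by 0.55 ± 0.08 (adjusted p = 4.13e-05).

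MAP kinases moved in both directions. Of 35 MAP kinases and their activators, 9 rose and 11 fell with a median of -0.04, while with library size alone 13 rose and 9 fell. MAP3K14, the kinase NIK that starts noncanonical NF-kappaB signalling, rose by 1.01 ± 0.09 (adjusted p = 2.22e-07), and MAP2K6, an activator of p38 kinases, fell by 0.97 ± 0.10 on the log2 scale (adjusted p = 9.11e-07). The call for MAPK10, a JNK kinase, at -1.46 was lost without DMSO replicate 1 (adjusted p = 0.0884); it had under 0.4 CPM in every library.

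Of 12 MAP kinase phosphatases measured, 8 rose and 1 fell, with a median of 0.95. DUSP8 (chromosome 11, 1575273 to 1593149), a phosphatase of JNK and p38, had 39.01, 41.64 and 39.98 CPM in treated cells, against 0.289, 0.994 and 0.625 CPM in DMSO cells. Those are 2476, 2571 and 2182 exon reads in treated cells against 34, 52 and 29 in DMSO cells. The groups lay far apart, the log2 change was 6.14 ± 0.26 (adjusted p = 1.63e-09), and it was 5.62 without DMSO replicate 1. Per length of exon, its level was 8.71 CPM per kilobase in treated cells and 0.138 in DMSO cells. DUSP4 (chromosome 8, 29190580 to 29208184) had 9.06, 8.00 and 8.03 CPM in treated and 0.323, 0.420 and 0.646 CPM in DMSO cells, a change of 4.26 ± 0.19. DUSP10, which acts on JNK and p38, had 45.7, 48.4 and 46.3 CPM in treated cells against 6.81, 5.16 and 5.69 CPM in DMSO cells, a change of 2.98 ± 0.10. In both genes the groups were clearly separate. DUSP1 rose by 2.69, DUSP2 by 1.48 and DUSP16 by 1.23 on the log2 scale. The member that fell was DUSP6, a phosphatase that prefers ERK, with 110, 118 and 108 CPM in treated and 182, 145 and 148 CPM in DMSO cells (-0.50 ± 0.08, adjusted p = 0.000119). Of 9 Sprouty, SPRED and ERBB feedback inhibitors, only SPRY4 rose, by 1.94 ± 0.21, and LRIG1 fell by 0.62. That is 11.1% each way, against 16.8% higher and 17.1% lower over all tested genes.

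**Figure D2:**
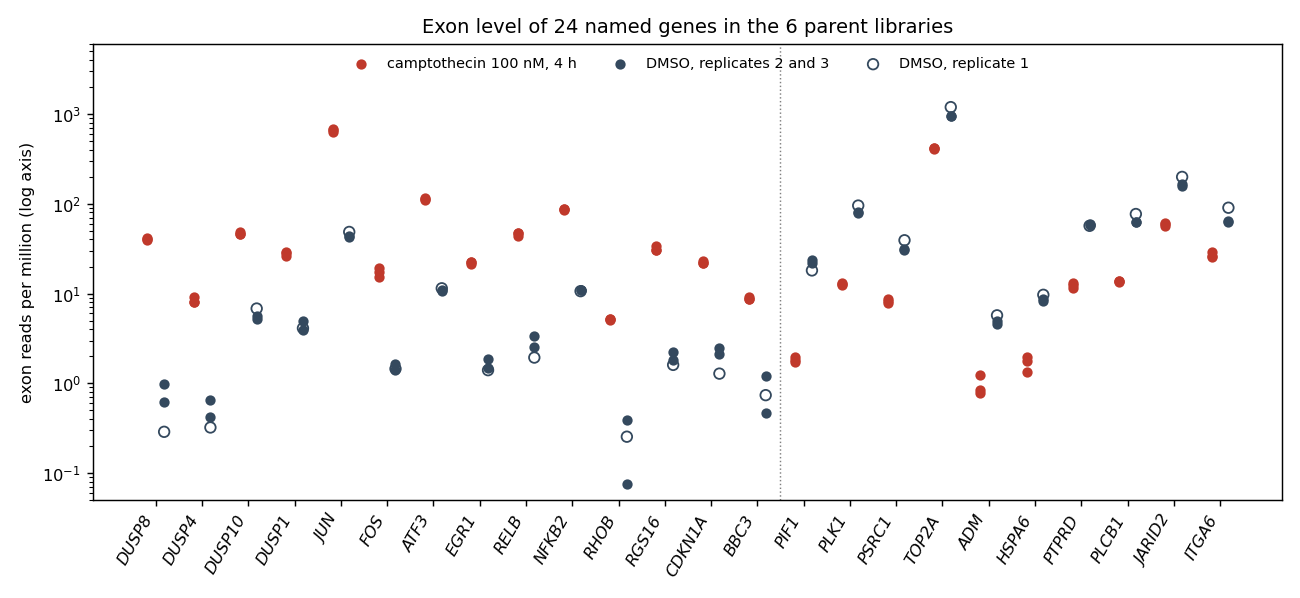
Exon CPM (log axis) in each of the 6 libraries for genes that rose (left of the dotted line) and fell (right of it). Red points are camptothecin libraries, filled dark points DMSO replicates 2 and 3, and open points the deep DMSO replicate 1. In every gene shown the treated libraries lie outside the DMSO range, as in JUN at 631 to 670 CPM in treated and 42.3 to 48.5 CPM in DMSO libraries. For genes named as the largest rises and falls, the naming rule required such separation.

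Transcription factors of the basic leucine zipper class rose in 19 of 45 measured members and fell in 6; without DMSO replicate 1 the counts were 25 and 7. All 3 JUN genes rose: JUN had 663, 670 and 631 CPM in treated and 48.5, 43.9 and 42.3 CPM in DMSO cells (3.87 ± 0.07, adjusted p = 6.8e-16), JUND rose by 2.30 and JUNB by 2.26. JUN was also the most abundant of them, at 197 CPM per kilobase of exon in treated cells and 13.5 in DMSO cells. FOS, the partner of JUN in AP-1, had 19.4, 17.5 and 15.4 CPM in treated cells, against 1.45, 1.62 and 1.40 CPM in DMSO cells, and rose by 3.55 ± 0.16. FOSB rose by 3.15 and FOSL2 by 1.29, and FOSL1 had a change of -0.33 that was not called. ATF3 reached 112, 117 and 111 CPM in treated cells, against 11.4, 10.8 and 11.1 CPM in DMSO cells. MAFF rose by 1.79, the stress factor DDIT3 by 1.35 and CEBPB by 1.26 on the log2 scale. CEBPA rose by 3.35 ± 0.82 (adjusted p = 0.00351) from a very low level of at most 0.0862 CPM in DMSO cells. XBP1, a factor of the unfolded protein response, fell by 0.54 and ATF6 by 0.70.

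Of 21 Kruppel-like, SP and EGR zinc finger factors, 12 rose and 3 fell (median 0.43). EGR1 (chromosome 5, 137801178 to 137805003) had 22.5, 21.1 and 22.7 CPM in treated cells, against 1.40, 1.49 and 1.85 CPM in DMSO cells, a change of 3.82 ± 0.14 (adjusted p = 3.73e-12). EGR3 rose by 3.58 ± 0.46 and EGR2 by 1.48 ± 0.36. KLF10 had 56.8, 52.95 and 52.57 CPM in treated and 26.8, 17.7 and 19.5 CPM in DMSO cells (1.33 ± 0.11). The largest fall was in KLF12, a long gene, with 24.1, 26.4 and 25.6 CPM in treated and 78.3, 77.9 and 74.7 CPM in DMSO cells (-1.60 ± 0.07, adjusted p = 1e-10). KLF2, a factor of lymphocyte quiescence, fell by 0.59.

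Nuclear receptors rose in 8 of 24 members and fell in 2. The 3 orphan receptors of the NR4A family all rose: NR4A3 had 5.03, 4.91 and 4.33 CPM in treated cells against 0.374, 0.631 and 0.517 CPM in DMSO cells (3.27 ± 0.23), NR4A1 rose by 2.80 ± 0.11 and NR4A2 by 1.62 ± 0.19. RARG, a retinoic acid receptor, rose by 1.27. The glucocorticoid receptor NR3C1 fell by 0.61 ± 0.06 (adjusted p = 1.19e-06). Forkhead factors went both ways, with 4 of 15 higher and 4 lower; FOXO4 rose by 0.80 and FOXO3 by 0.61, while FOXN3 fell by 1.10 and FOXP1 by 1.07.

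NF-kappaB genes had the highest share of rises among the 48 lists, with 22 of 27 members higher and 1 lower (median 0.51). RELB (chromosome 19, 45504687 to 45541451) had 46.7, 47.2 and 43.7 CPM in treated cells, against 1.94, 2.54 and 3.38 CPM in DMSO cells, a change of 4.17 ± 0.15 (adjusted p = 5.76e-12). Its partner in the noncanonical pathway, NFKB2, had 88.4, 86.5 and 86.1 CPM in treated and 10.6, 11.03 and 10.9 CPM in DMSO cells, a change of 3.003 ± 0.07. In both genes the treated libraries lay far above all DMSO libraries. REL rose by 1.36 and RELA by 0.49, whereas NFKB1 exon reads had a change of -0.04 (adjusted p = 0.743). NFKB1 intron reads rose by 1.08 (adjusted p = 7.25e-08). The inhibitor NFKBIA rose by 1.71 ± 0.10, BCL3 by 2.85 ± 0.26, NFKBIZ by 1.20 and the ubiquitin editor TNFAIP3 by 1.06. The adaptor TRAF4 rose by 1.70 and BIRC3, an inhibitor of apoptosis, by 1.57. TRAF5 was lower, with 30.03, 30.3 and 31.1 CPM in treated cells and 53.6, 49.7 and 50.3 CPM in DMSO cells, and a second member was called lower when DMSO replicate 1 was left out, which made 2.

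Among ligands, 5 of 13 TNF family members rose and 1 fell, and 2 fell without DMSO replicate 2. TNF had 40.5, 38.7 and 38.1 CPM in treated cells and 14.3, 12.2 and 11.3 CPM in DMSO cells (1.62 ± 0.09, adjusted p = 7.19e-10). TNFSF9, the ligand of the costimulatory receptor 4-1BB, rose by 2.57 ± 0.27, and CD70, the ligand of CD27, by 2.004 ± 0.40 from at most 0.153 CPM in DMSO cells. TNFSF4, the OX40 ligand, fell by 1.19 ± 0.13. Of 15 chemokines and interleukins, IL8 (CXCL8) and IL23A rose and IL16 and IL32 fell, 13.3% each way against 16.8% and 17.1% of all tested genes. IL8 had 9.20, 8.88 and 8.63 CPM in treated cells, against 0.714, 0.573 and 0.668 CPM in DMSO cells (3.75 ± 0.28), and IL32 had 227, 225 and 212 CPM in treated cells against 317, 308 and 291 CPM in DMSO cells (-0.47 ± 0.06). Growth factor ligands rose in 7 of 17 and fell in 3, or 5 without DMSO replicate 3. PDGFA rose by 0.94, EFNB2 by 0.80 and HBEGF by 0.66, and VEGFA, the vascular growth factor, fell by 0.44; VEGFA and ADM also belong to the hypoxia list. The vasodilator peptide gene ADM had 0.788, 0.842 and 1.25 CPM in treated cells, against 5.72, 4.55 and 4.91 CPM in DMSO cells (-2.41 ± 0.19, adjusted p = 3.69e-08). WNT10A, a WNT ligand outside these lists, rose by 3.86 ± 0.34 from at most 0.302 CPM in DMSO cells.

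Of 15 TNF receptor genes, 5 rose and 2 fell. TNFRSF9, the receptor 4-1BB, had 0.284, 0.405 and 0.458 CPM in treated and 0.0595, 0.0382 and 0 CPM in DMSO cells, and TNFRSF4, the receptor OX40, rose by 1.29 ± 0.29. CD27 fell by 0.56. The count of 5 depends on single libraries: it was 3 without DMSO replicate 1, 2 without treated replicate 1 and 3 without treated replicate 2 or 3. TNFRSF13C was not called in 8 of 14 alternatives, and TNFRSF12A not without treated replicate 1 (adjusted p = 0.0742). Cytokine and chemokine receptors rose in 11 of 24 and fell in 6, or 2 with library size alone. IL2RA, the alpha chain of the interleukin 2 receptor and a marker of activated T cells, had 14, 12 and 21 exon reads in treated cells and none in the 3 DMSO libraries. Against a floor of 3 reads over the DMSO group this is at least 21.0-fold higher, or at least 9.09-fold without DMSO replicate 1 (adjusted p = 0.000659). CXCR5 rose by 0.96, CXCR4 by 0.65 with 315 to 321 CPM in treated and 194 to 207 CPM in DMSO cells, and the lymph node homing receptor CCR7 fell by 0.73 ± 0.07.

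Below the receptors, the SOCS inhibitors of cytokine signalling had the largest rises of their list. Of 22 JAK, STAT, SOCS and PIM genes, 12 rose and 4 fell. SOCS3 had 1.34, 0.745 and 1.04 CPM in treated and 0.247, 0.191 and 0.302 CPM in DMSO cells (2.08 ± 0.43), and SOCS1 had 4.84, 5.52 and 5.20 CPM in treated cells against 1.25, 1.70 and 1.42 CPM in DMSO cells (1.85 ± 0.14). The PIM kinases PIM2 and PIM3 rose by 1.02 and 0.79. The 4 that fell were JAK1 (-0.59), STAT3 (-0.42), STAT5A (-0.37) and STAT5B (-0.70). TGF-beta feedback and ID genes rose in 10 of 16 and fell in 3 (median 0.73). ID2, an inhibitor of helix-loop-helix factors, rose by 2.44 ± 0.26 and ID1 by 1.74 ± 0.14, and ID3 had a change of 0.11 that was not called. The SMAD corepressor SKI rose by 1.41 and SMAD7, an inhibitor of TGF-beta signalling, by 1.28; TGIF1 fell by 1.38 ± 0.30 (adjusted p = 0.00164).

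RHOB (chromosome 2, 20646834 to 20649199), a stress-inducible small GTPase, had 5.23, 5.22 and 5.08 CPM in treated cells and 0.255, 0.0764 and 0.388 CPM in DMSO cells (4.42 ± 0.25, adjusted p = 1.04e-09). The groups lay far apart. Of 14 RGS genes, which shorten G protein signals, 3 rose and 6 fell, or 4 without DMSO replicate 1 and 3 with library size alone. RGS16 had 33.8, 30.4 and 30.2 CPM in treated cells against 1.61, 2.26 and 1.81 CPM in DMSO cells (4.08 ± 0.13), RGS2 rose by 1.47 and RGS1 by 0.78, and RGS18 fell by 0.71. A list of genes that neuronal activity regulates, some of them also stress genes, rose in 5 of 9 members. ARC had 4.08, 4.75 and 4.91 CPM in treated and 0.153, 0.153 and 0.259 CPM in DMSO cells (4.65 ± 0.27). GADD45G rose by 2.56 (edgeR adjusted p = 0.0784 without treated replicate 3), PLK3 by 1.76 and the kinase SIK1 by 1.19. HOMER1, the member that fell, was not called without DMSO replicate 1 or with each of the 3 treated libraries left out in turn, which left 0 lower.

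Notch genes rose in 6 of 19 members and fell in 2 (4 fell without DMSO replicate 1, and 1 without DMSO replicate 2 or treated replicate 2). LFNG, a glycosyltransferase that modifies Notch, rose by 2.30 ± 0.31, HES4 by 1.64, NRARP by 1.57 and HES6 by 1.35, while HES1 fell by 0.54 and NOTCH1 had a change of 0.09 that was not called. In the MYC network 4 of 12 rose and 3 fell. MXD1, which competes with MYC for MAX, had 49.3, 51.9 and 50.4 CPM in treated cells and 17.6, 17.01 and 18.01 CPM in DMSO cells (1.53 ± 0.06, adjusted p = 1.48e-11), and MYC rose by 0.26 with overlapping groups. Clock genes rose in 7 of 17 and fell in 2. PER1 rose by 1.11 ± 0.11 and PER2 by 0.51, and BHLHE40, a repressor of the clock that hypoxia also induces, fell to 5.06, 4.50 and 5.37 CPM in treated cells, against 19.1, 16.5 and 15.01 CPM in DMSO cells.

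PIF1, a DNA helicase (chromosome 15, 65107830 to 65117866), had the largest fall among genes that averaged 1 CPM or more, with 1.99, 1.83 and 1.74 CPM in treated cells and 18.1, 21.6 and 23.5 CPM in DMSO cells (-3.50 ± 0.13, adjusted p = 3.73e-12). PLK1, the mitotic kinase (chromosome 16, 23688976 to 23701687), had 12.6, 13.1 and 12.8 CPM in treated and 95.4, 79.3 and 80.3 CPM in DMSO cells (-2.73 ± 0.09). PSRC1, a spindle protein, had 7.86, 8.21 and 8.67 CPM in treated cells against 39.19, 31.5 and 30.6 CPM in DMSO cells (-2.04 ± 0.10). None of these groups overlapped, which the rule for naming the largest falls required. Of 23 cyclins, 7 rose and 8 fell: the mitotic cyclins CCNB1 (-1.57), CCNB2 (-1.09), CCNF (-0.96) and CCNA2 (-0.93) fell, and the G1 cyclins CCNE1 (0.53) and CCNE2 (0.51) rose. CDK inhibitors and CDK phosphatases rose in 4 of 13 and fell in 3. CDKN1A, the inhibitor p21, had 21.7, 22.9 and 22.1 CPM in treated and 1.28, 2.14 and 2.48 CPM in DMSO cells (3.56 ± 0.19, adjusted p = 1.81e-09). PKMYT1, which restrains CDK1, rose by 0.99 and the S phase phosphatase CDC25A by 0.66, and CDKN3 fell by 0.91.

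BBC3 encodes PUMA, a BH3-only protein that promotes apoptosis. It had 9.19, 8.70 and 8.59 CPM in treated cells, against 0.740, 1.22 and 0.474 CPM in DMSO cells (3.44 ± 0.25, adjusted p = 1.84e-08). Of 21 caspases, IAP genes and death adaptors, 9 rose and 5 fell, and the rises numbered 5 without treated replicate 1 and 4 without treated replicate 3. RIPK1 rose by 0.54 ± 0.10 and BIRC6, a very large ubiquitin ligase that restrains caspases, fell by 0.59 ± 0.06. RIPK2, a kinase of innate signalling, had a change of 1.41 whose call was lost without treated replicate 1, 2 or 3 or DMSO replicate 2 (adjusted p 0.0503 to 0.121). The call for CASP9, the initiator caspase of the mitochondrial pathway, at 0.54 was lost without treated replicate 1 or 3 or DMSO replicate 2 (adjusted p 0.0538 to 0.136).

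Metallothioneins, which bind heavy metals, rose in 4 of 6 and fell in 0. MT1E rose by 1.36 and MT1G by 1.36; these genes share near-identical copies, and on reads outside overlaps MT1X had a change of 0.03 instead of 0.48. MT2A had a change of 0.34 whose call was lost without treated replicate 1 or 2 (adjusted p 0.0813 and 0.0541). Of 16 NRF2 and oxidative stress genes, 2 rose and 4 fell, while with library size alone 4 rose and 2 fell. SESN2 had 28.3, 27.1 and 27.5 CPM in treated and 8.78, 11.7 and 10.0 CPM in DMSO cells (1.45 ± 0.09), and SQSTM1, an autophagy receptor, rose by 0.80. Autophagy genes rose in 6 of 23 and fell in 3 (11 rose with library size alone), with GABARAPL1 at 0.64 and MAP1LC3B at 0.59. Heat shock genes named among the largest falls were HSPA6, with 1.36, 1.94 and 1.76 CPM in treated and 9.68, 8.66 and 8.36 CPM in DMSO cells (-2.40 ± 0.15), HSPA1A (-2.29) and HSPA1L (-2.42). HSPA1A and HSPA1L are uncertain because they overlap and share near-identical copies.

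Among genes of transcription elongation the largest rises were in the 7SK complex that holds P-TEFb. Of 25 P-TEFb and elongation control genes, 12 rose and 5 fell; the falls numbered 3 with each treated library left out in turn. HEXIM1, which holds P-TEFb inactive on 7SK RNA, had 64.3, 62.2 and 61.1 CPM in treated cells and 22.4, 19.3 and 16.7 CPM in DMSO cells (1.68 ± 0.09, adjusted p = 2.86e-10). MEPCE, the enzyme that caps 7SK RNA, had 131, 134 and 128 CPM in treated and 72.1, 60.8 and 57.6 CPM in DMSO cells (1.04 ± 0.07). The P-TEFb subunits CCNT1 and CDK9 rose by 0.66 and 0.32, and MLLT3 fell by 0.97.

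Of 20 SR splicing factors and their kinases, 5 rose and 5 fell. SRSF6 rose by 0.66 and SRSF7 by 0.42, and SRPK2, a kinase of SR proteins, fell by 0.88, TRA2B by 0.65 and SRSF1 by 0.62. snoRNA host genes, whose spliced RNAs are degraded quickly in translating cells, rose in 12 of 16 and fell in 0 (median 0.47). ZFAS1 had 173, 166 and 165 CPM in treated cells, against 87.1, 83.9 and 91.4 CPM in DMSO cells (0.94 ± 0.06, adjusted p = 8.72e-09), and SNHG12 rose by 0.78, SNHG17 by 0.76 and SNHG9 by 0.72. Intron reads of these hosts rose in 2 and fell in 2 of 15 (median 0.02), against 12.1% and 14.2% of all genes tested on introns.

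Regulators of mRNA decay split evenly, with 9 of 21 higher and 9 lower. BTG2, an antiproliferative gene whose product promotes deadenylation, had 57.8, 59.3 and 56.3 CPM in treated and 10.8, 9.46 and 11.03 CPM in DMSO cells (2.47 ± 0.07, adjusted p = 4.3e-13), ZFP36L1 rose by 1.21, ZFP36 by 1.20 and the endonuclease gene ZC3H12A by 1.10. The deadenylase subunits CNOT1 (-0.28), CNOT2 (-0.49), CNOT6L (-0.54) and CNOT7 (-0.42) fell, as did the exonuclease gene XRN1 (-0.29), and CNOT3 rose by 0.41.

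SWI/SNF subunits, which remodel nucleosomes, fell in 12 of 24 and rose in 4 (median -0.20); without DMSO replicate 1 they fell in 10 and rose in 6 (median -0.07), with library size alone the counts were 9 and 8, and 2 rose without treated replicate 2. ARID1B, a DNA-binding subunit, had 25.2, 26.3 and 29.5 CPM in treated cells and 56.5, 66.0 and 67.0 CPM in DMSO cells (-1.23 ± 0.12, adjusted p = 9.15e-07), DPF3 fell by 1.08 and ARID2 by 0.71, and DPF1 rose by 0.91. Histone demethylases fell in 6 of 20 and rose in 2, but 1 rose in 10 of 14 alternatives, among them those without DMSO replicate 1 or 3 or with each treated library left out in turn. KDM6B, a demethylase of histone H3 lysine 27, had 16.8, 15.99 and 20.7 CPM in treated and 4.19, 6.61 and 7.11 CPM in DMSO cells (1.60 ± 0.25). KDM4C fell by 0.88.

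Histone deacetylases and sirtuins fell in 9 of 18 and rose in 5, or 6 each with library size alone. HDAC9 had 0.347, 0.227 and 0.293 CPM in treated cells, against 1.39, 1.41 and 1.72 CPM in DMSO cells (-2.37 ± 0.37, adjusted p = 7.72e-05), HDAC8 fell by 0.88 and HDAC4 by 0.81, and SIRT1 rose by 0.88 ± 0.10. Of 24 Polycomb subunits, 8 rose and 4 fell, or 2 without treated replicate 1 or 3; with library size alone 12 rose and 1 fell. JARID2, a cofactor of Polycomb complex PRC2, had 57.1, 60.2 and 59.5 CPM in treated cells and 199, 166 and 159 CPM in DMSO cells (-1.57 ± 0.07, adjusted p = 1.03e-10); the core enzyme gene EZH2 had a change of -0.06 that was not called.

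Hypoxia and glycolysis genes had the highest share of falls among the 48 lists: 25 of 30 fell and 2 rose (median -0.41), against 17.1% lower over all genes. Intron reads of this list fell in 22 of 29 and rose in 0 (median -0.61), against 14.2% and 12.1% of all genes tested on introns. LDHA, lactate dehydrogenase, had 550, 545 and 540 CPM in treated cells and 1168, 742 and 759 CPM in DMSO cells (-0.71 ± 0.13, adjusted p = 0.000612). PGK1 had 699, 701 and 678 CPM in treated and 1024, 1002 and 987 CPM in DMSO cells (-0.54 ± 0.06), and its intron reads fell by 1.65. PDK1, which holds back pyruvate oxidation, fell by 1.05, the mitophagy gene BNIP3 by 0.95 and hexokinase HK1 by 0.92. The rises were PFKFB3 (0.23) and ENO2 (0.27), of which 1 was left without DMSO replicate 1 or with each treated library left out in turn. With library size alone 24 fell and 3 rose.

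Respiratory chain subunits fell in 15 of 30 and rose in 2 (19 and 2 without DMSO replicate 1; 10 and 6 with library size alone), and proteasome subunits fell in 14 of 30 and rose in 0 (17 and 1; 9 and 1). For the chain, 1 rose with each treated library left out in turn or without DMSO replicate 2. Their intron reads showed no such excess of falls: 3 of 29 chain genes and 2 of 30 proteasome genes were lower, and 4 of each were higher. Over all genes tested on introns, 14.2% were lower and 12.1% higher. PSMB2, a subunit of the 20S proteasome core, had 88.1, 87.4 and 85.9 CPM in treated and 174, 129 and 135 CPM in DMSO cells (-0.74 ± 0.09, adjusted p = 3.55e-06). NDUFV2 and NDUFC2, subunits of complex I, fell by 0.55 and 0.56, and on reads outside overlaps their changes were -0.62 (adjusted p = 0.0879) and -0.34 (adjusted p = 0.544).

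Aminoacyl-tRNA synthetases fell in 7 of 20 and rose in 0, or fell in 11 without DMSO replicate 2 or 3 and rose in 1 without DMSO replicate 1, and 5 fell and 2 rose with library size alone; DARS fell by 0.56, WARS by 0.50 and IARS by 0.49. Translation factors rose in 3 of 25 and fell in 5, a count that was 10 without DMSO replicate 2, 8 without DMSO replicate 3 and 3 with each treated library left out in turn. EIF1 rose by 0.67 and EIF5 by 0.54, and the cap-binding gene EIF4E fell by 0.54. Ribosome biogenesis factors rose in 7 of 25 and fell in 5; 12 rose without DMSO replicate 1, and 3 fell without treated replicate 1 or 2; with library size alone 10 rose and 1 fell. NPM1, a nucleolar chaperone, had 431, 442 and 438 CPM in treated cells and 828, 496 and 502 CPM in DMSO cells; DMSO replicate 1 stood far above all others, and the call at -0.48 was lost with each of the 3 treated libraries left out in turn (adjusted p 0.0673 to 0.0751). Without DMSO replicate 1 the NPM1 change was -0.19 (adjusted p = 0.00134). Cholesterol genes rose in 6 of 25 and fell in 7, with 10 higher without DMSO replicate 1 and 3 higher without treated replicate 1, and 12 higher and 4 lower with library size alone. Their intron reads fell in 11 of 25 and rose in 1 (median -0.33), against 14.2% and 12.1% of all genes tested on introns. INSIG1, which retains the sterol sensor in the endoplasmic reticulum, had 168, 168 and 164 CPM in treated and 265, 265 and 262 CPM in DMSO cells (-0.66 ± 0.06, adjusted p = 9.9e-08). Of 12 amino acid transporters, 3 rose and 1 fell (6 rose with library size alone), with SLC6A9 at 1.26, SLC3A2 at 0.91 and SLC38A1 at -0.58.

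On the cell surface, adhesion genes fell in 12 of 21 and rose in 4 (median -0.34); the rises numbered 1 without treated replicate 1 and 2 without treated replicate 3 or DMSO replicate 2 or 3. ITGA6 had 25.3, 26.2 and 28.8 CPM in treated cells against 90.2, 63.7 and 63.2 CPM in DMSO cells (-1.44 ± 0.12, adjusted p = 1.36e-07), and ITGA4 had 293, 302 and 305 CPM in treated cells against 624, 586 and 593 CPM in DMSO cells (-1.003 ± 0.06). Lymphocyte activation markers rose in 4 of 12 and fell in 6. CD69, the earliest of them after stimulation, had 210, 206 and 206 CPM in treated cells and 57.7, 56.7 and 58.3 CPM in DMSO cells (1.85 ± 0.05, adjusted p = 3.41e-13). PDCD1, the checkpoint receptor PD-1, rose by 2.39 ± 0.19 and CD83 by 1.25, while CD44 fell by 0.74 and CD28 by 0.50.

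**Figure D3:**
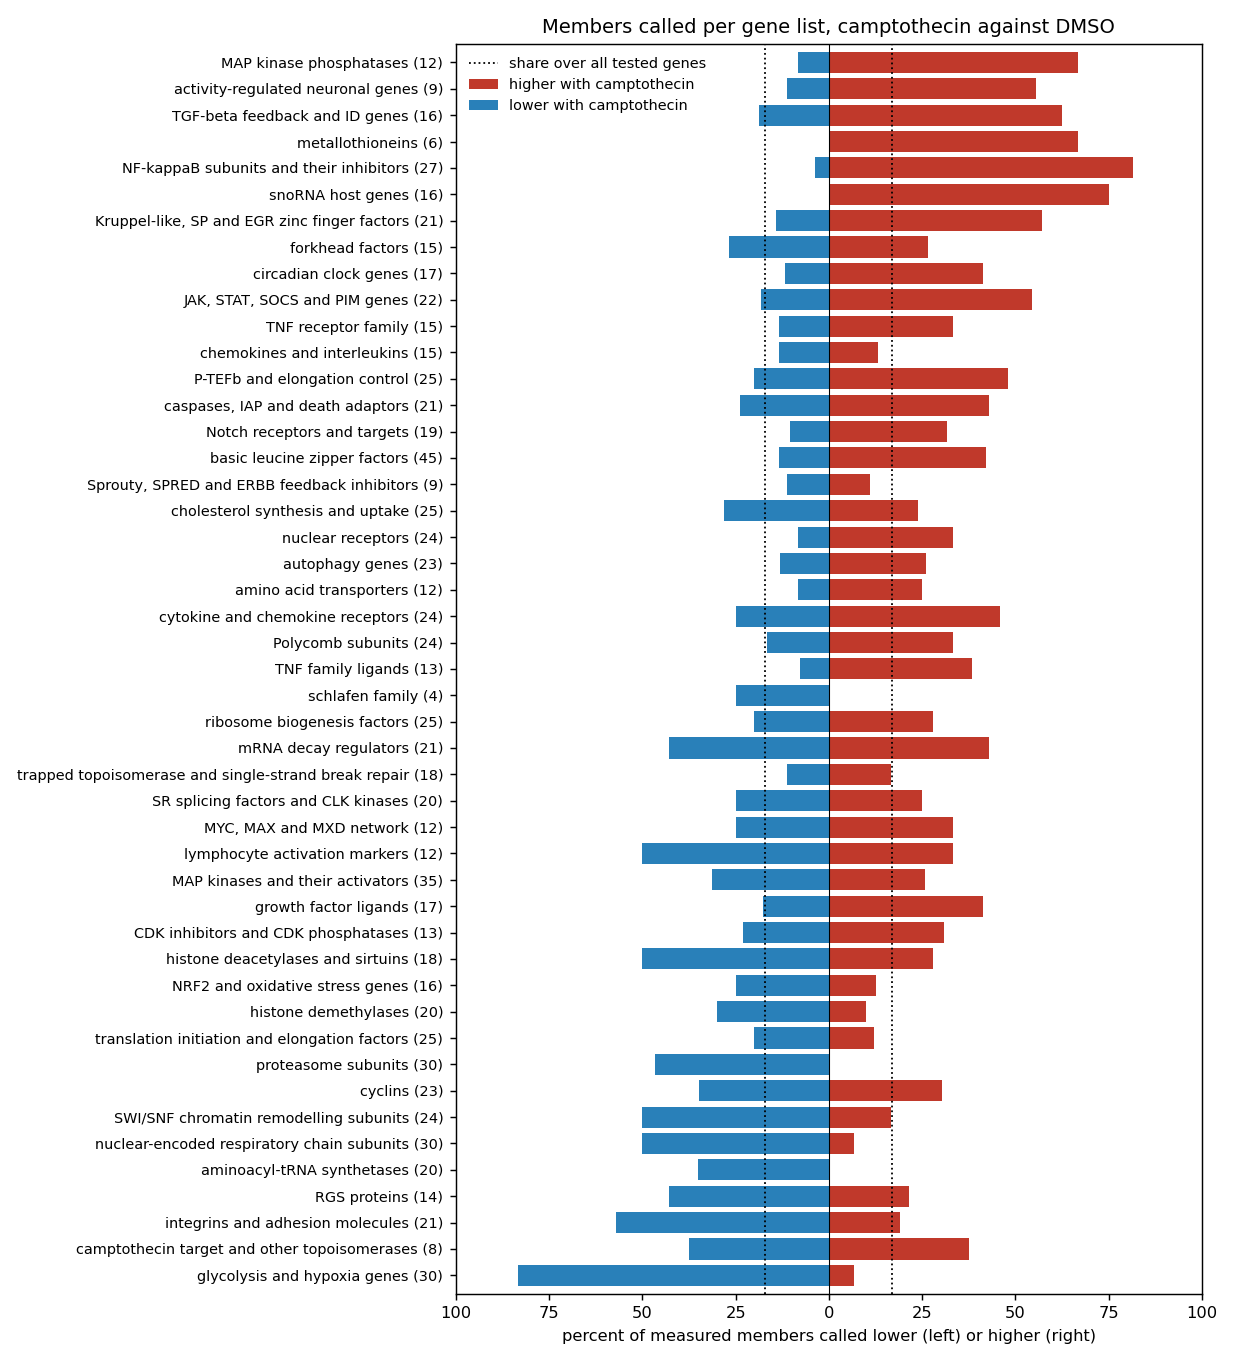
Percent of measured members called lower (blue, left) and higher (red, right) with camptothecin in each of 47 gene lists, with the number measured in brackets and lists ordered by their median change. Dotted lines mark the shares over all tested genes, 16.8% higher and 17.1% lower; NF-kappaB genes reach 81.5% higher and glycolysis and hypoxia genes 83.3% lower.

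The 48 lists held 1039 genes, of which 915 were measured. Their medians moved up by 0.12 to 0.14 with library size alone as the scale, as the median of all genes did, and 10 changed sign, among them MAP kinases, growth factor ligands, the MYC network, CDK inhibitors, SR factors, histone demethylases, deacetylases, oxidative stress genes and activation markers. Under the same scale 8 repair genes and 2 Sprouty list genes rose, and the falls were 1 for nuclear receptors, 1 for Notch genes, 2 for elongation genes and 3 each for SR factors and translation factors. Without DMSO replicate 1, 5 of these 10 changed sign: MAP kinases, growth factor ligands, the MYC network, CDK inhibitors and SR factors.

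Gene length ordered the share of genes that fell, but not the share that fell at least 2-fold. Among genes of 300 kb or more, 61.1% of 473 fell and 2.75% rose, and 31.5% fell at least 2-fold, against 2.43% of all genes. From 100 to 300 kb 953 of 2256 fell, from 50 to 100 kb 23.7%, from 20 to 50 kb 17.4%, from 5 to 20 kb 12.8% and under 5 kb 8.14%. Falls of at least 2-fold made up 3.72% from 100 to 300 kb and 1.52% from 50 to 100 kb. They made up 0.959% from 20 to 50 kb, 1.11% from 5 to 20 kb and 2.35% under 5 kb. Rises were most frequent from 5 to 20 kb (26.7%) and from 20 to 50 kb (24.7%). Under 5 kb only 9.73% rose, so both rises and falls were called less often there than from 5 to 20 kb. The length classes were not matched for expression level. The longest class kept its fall without DMSO replicate 1 (58.6% of 485 lower) and with library size alone (55.8% lower). With reads counted over the whole gene, introns included, 871 genes of the longest class were tested and 32.7% of them fell.

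Long genes filled much of the list of largest falls. PTPRD, a receptor tyrosine phosphatase (chromosome 9, 8314245 to 10612722), had 13.1, 11.5 and 12.4 CPM in treated cells and 56.8, 58.9 and 57.5 CPM in DMSO cells (-2.23 ± 0.10, adjusted p = 1.03e-10). PLCB1, a phospholipase C (chromosome 20, 8112823 to 8949002), had 13.4, 13.9 and 13.7 CPM in treated and 76.8, 62.2 and 63.1 CPM in DMSO cells (-2.30 ± 0.08). PARD3, a polarity protein gene (chromosome 10, 34398487 to 35104252), had 28.9, 27.4 and 27.3 CPM in treated cells against 134, 104 and 103 CPM in DMSO cells (-2.03 ± 0.09). In each, every treated library lay below every DMSO library, which the rule for naming the largest falls required. ST6GALNAC3 fell by 2.36, the kinase gene TNIK by 2.08, the sulfotransferase gene HS3ST4 by 2.01 and CCDC26 by 2.03, all in the longest class. RP11-103C16.2, which fell by 2.30, is shorter, in the class from 50 to 100 kb, and its introns fell by 1.81.

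**Figure D4:**
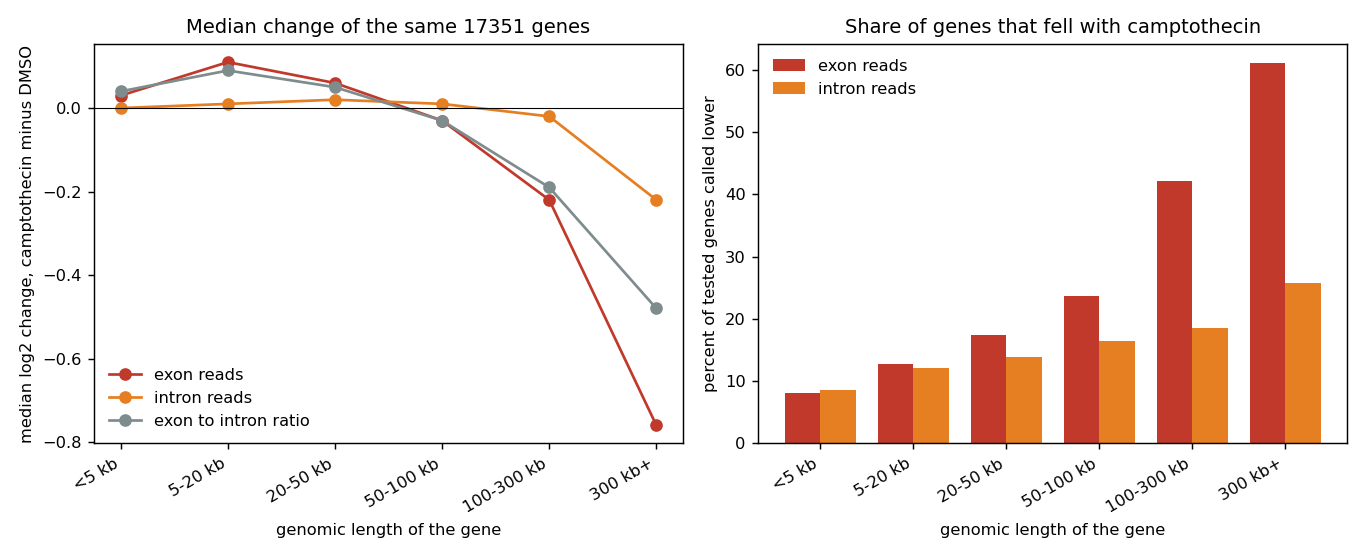
Left, median log2 change, camptothecin minus DMSO, of exon reads, intron reads and the exon to intron ratio by genomic length of the gene, over the same 17351 genes. Right, percent of genes called lower on exon reads (red) and intron reads (orange) in each length class, over all genes tested on each readout. These sets of genes differ: in genes of 300 kb or more exon reads fell in 61.1% of 473 and intron reads in 25.7% of 868.

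Intron reads, which come mostly from unspliced RNA, gave a similar but smaller response. Of 19908 genes tested on introns, 2400 rose (12.1%) and 2831 fell (14.2%); with library size alone these were 4248 and 1866, and the share of rises among calls was 69.5% instead of 45.9%. Over the 17351 genes in both fits, exon and intron changes had a Pearson r of 0.67 and a Spearman coefficient of 0.59 across genes, which share libraries and are not independent. Both readouts rose in 1229 genes and both fell in 1656; exons rose while introns fell in 60, and exons fell while introns rose in 123. DUSP8 introns had 139, 129 and 126 CPM in treated cells and 2.78, 3.41 and 2.18 CPM in DMSO cells, and their change was 5.55 ± 0.13. FOS introns rose by 4.33 and PIF1 introns fell by 3.93, with 1.79, 0.966 and 0.815 CPM in treated and 23.5, 14.2 and 17.2 CPM in DMSO cells. NEU4, a sialidase gene, had 11.1, 12.52 and 9.73 CPM on introns in treated cells and 0.364, 0.0449 and 0.0989 CPM in DMSO cells, a change of 5.69. RP11-13K12.1 (chromosome 17, 75543021 to 75559324) had 3.20, 3.01 and 3.17 CPM on introns in treated cells and no intron read in DMSO cells. CTD-2196E14.5, whose introns fell by 2.62, lies within PLK1, and its reads cannot be told apart from those of PLK1.

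The exon to intron ratio, tested with limma on log2 values per library, rose in 1414 of 17351 genes (8.15%) and fell in 1712 (9.87%). Without DMSO replicate 1 the counts were 1775 and 1699, and the share of rises among calls was 51.1% instead of 45.2%. Without treated replicate 1, 2 or 3 the ratio rose in 932, 939 and 855 genes and fell in 1224, 1134 and 1077. In genes of 300 kb or more the ratio fell in 48.6% and rose in 2.96% (39.6% to 42.6% and 1.65% to 2.06% with each treated library left out in turn); their median change was -0.76 on exons, -0.22 on introns and -0.48 in the ratio. PLCB1 introns fell by 0.71 where exons fell by 2.30, and JARID2 introns by 0.71 where exons fell by 1.57. IER2, an immediate early gene with 179, 182 and 172 CPM on exons in treated and 34.9, 44.2 and 50.1 CPM in DMSO cells, had the largest called rise of the ratio among genes that averaged 1 CPM or more on exons and on introns (1.90, limma adjusted p = 1.23e-06), with an intron change of 0.16 that was not called. NR4A1 had a ratio change of 1.51 and MXD1 of 1.22. PFKFB4, a regulator of glycolysis, had overlapping exon levels of 4.96, 5.57 and 5.35 CPM in treated and 4.75, 5.27 and 6.48 CPM in DMSO cells while its introns fell by 1.80, and the chaperone gene HSPH1 had introns lower by 2.12 and exons lower by 0.64. The ratio of RP11-488L18.8 was 1.47, a call lost without DMSO replicate 1 (adjusted p = 0.164).

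Of the 5 largest called falls of the ratio among genes that averaged 1 CPM or more on exons and on introns, 4 were in genes whose introns rose, and ST6GALNAC3 (-1.79 in the ratio) was a long gene whose exons fell. TUBB4B, a tubulin gene (chromosome 9, 140135664 to 140138158), had 263, 256 and 248 CPM on exons in treated cells and 331, 270 and 266 CPM in DMSO cells, a change of -0.18 that was not called (adjusted p = 0.0791), while its introns rose by 2.85. FAM166A begins inside TUBB4B and had the same pattern with shared reads; on reads outside overlaps its exon change was 2.06 instead of -0.19, and its ratio change was not called (-0.15, adjusted p = 0.8). CPPED1, a phosphatase gene, and ZNF704 had exon changes of -0.14 and -0.08, which were not called, and intron rises of 1.64 each. Reads over the whole gene rose by 0.76 in CPPED1 and by 0.82 in ZNF704.

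**Figure D5:**
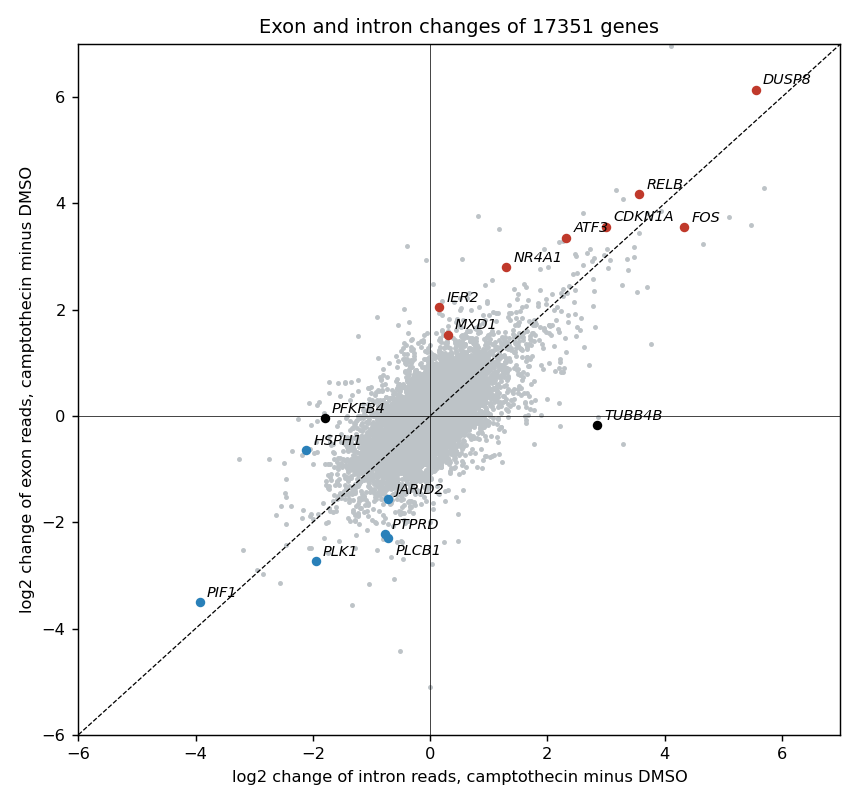
Log2 change of intron reads (x axis) against exon reads (y axis), camptothecin minus DMSO, for 17351 genes in both fits, of which 3 lie outside the axes. Named genes are red where exon reads rose, blue where they fell and black where they were not called, and the dashed line marks equal change; PLCB1 and PTPRD lie below it and IER2, NR4A1 and HSPH1 above it.

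Some genes were read almost only in treated cells. At most 3 exon reads in each DMSO library and a called rise of at least 2-fold were found in 15 genes. RP11-13K12.5, a gene next to RP11-13K12.1 (chromosome 17, 75559449 to 75564776), had 52, 59 and 42 reads in treated cells and 0 in all 3 DMSO libraries, at least 68.3-fold above a floor of 3 reads over the group (29.6-fold without DMSO replicate 1). EGR4, an EGR transcription factor, had 40, 28 and 33 reads in treated and 2, 0 and 1 in DMSO cells (adjusted p = 4.75e-05). KLF4, a factor of differentiation and pluripotency, had 21, 33 and 28 reads in treated and 2, 2 and 0 in DMSO cells (adjusted p = 7.28e-05). CDKN1C, the CDK inhibitor p57, had 18, 20 and 12 reads in treated cells, against 2 in each DMSO library (adjusted p = 0.000659). Since DMSO replicate 1 was the deepest library, its low counts are the strictest of these limits; floors cover counting error only.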

How the data were processed

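Per-gene tables of whole-number read counts were deposited for each library; per the file headers they give reads over exons, introns and the whole gene, and the same for stretches no other gene overlaps. Per the submitters' processing notes, the build was hg19 and the tools included STAR 2.5.4a, Picard 2.9.2, Trimmomatic 0.39 and Trim Galore 0.6.2, with no role given. What counted the reads, and with which annotation and strand setting, is not given in the sources used here; overlapping and antisense genes cannot be told apart. Per the labels' protocols, RNA with integrity numbers above 8.0 was sequenced as pooled paired-end libraries in a HiSeq4000 run. File names mark duplicates as removed, which compresses counts of abundant short transcripts, and the authors wrote counts over 6 digits with 6 significant digits. The label of parent control replicate 1 follows another naming pattern than the other 5 parent libraries, so leaving it out also gives the value within that pattern.

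Genes absent from a library's table counted as 0 reads there, over 43828 gene places. Exon and intron counts each entered edgeR's quasi-likelihood test (edgeR 4.0.16, R 4.3.3; filterByExpr, TMM, robust quasi-likelihood, 4 group means over 12 libraries; biological coefficient of variation 11.7% on exons), taking camptothecin-treated minus control parent cells at a Benjamini-Hochberg adjusted p below 0.05. A prior count of 2 was used for log2 values. The exon to intron ratio, as log2 CPM per library, was tested with limma 3.58.1. CPM uses TMM-adjusted library sizes; SE is the unshrunk log2 change divided by the square root of F. Alternatives were DESeq2 1.42.0, library size alone, no filter, unique or total reads, only the 6 parent libraries, a thinned replicate 1, a replicate block and leaving out each library. Scripts were tested on simulated data. The promoter motifs came from RefSeq.

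The members, the 48 lists and the naming rule were chosen with earlier results of these data known. The rule named the 15 strongest called changes each way among genes with at least 1 CPM on average and no overlap, up to 4 called members per list, fixed genes, the 5 largest intron and ratio changes each way, and the 3 highest genes near 0 in controls; further members are named where a count or family called for it after their values were seen. Same-numbered treated and control libraries deviated together with correlations of only 0.012 to 0.032. Some listed genes and 1 list are not reported here.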

Additional observations from a re-analysis of the deposited data

How the results depend on the processing

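Of the 218 named genes, 211 were called, and 21 lost a call or reversed direction in at least 1 of 14 alternatives on exons. Of these 21, CPPED1, ZNF704 and FAM166A were not called on exons in the main fit. TOP1, SLFN11, TUBB4B and PFKFB4, also not called there, gained a call in at least 1 alternative. On reads over the whole gene IL6ST was -0.29 instead of 0.85 (adjusted p = 0.0888), CPPED1 0.76 and ZNF704 0.82; on reads outside overlaps FAM166A was 2.06. The cause was not tested beyond the reads counted. Leaving out 1 library, 3142 to 4609 genes rose and 3249 to 4224 fell on exons (480 to 637 and 512 to 641 at least 2-fold), 1751 to 2656 and 2214 to 2932 on introns, and 855 to 1775 and 1077 to 1859 in the ratio. With library size alone intron reads rose in 4248 and fell in 1866 genes. Fitted on only the parent libraries, the ratio rose in 915 and fell in 1075. Replicate numbers are shared across groups but the labels give no pairing; with the replicate block 3950 and 3981 genes rose and fell on exons, 2496 and 2868 on introns, 1395 and 1761 in the ratio. Treated replicates 1 and 3 correlated best with the control of their own number (0.032 and 0.027). Treated replicate 2 correlated no better with its own number (0.012) than with control replicate 1 (0.013). All these correlations were small.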

Other observations

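Genes named ZNF and a number, most of which encode zinc finger repressors with a KRAB domain, rose as a group, mostly by less than 2-fold. Of 438 tested on exons, 283 rose (64.6%, against 16.8% of all genes) and 16 fell (3.65%), with a median of 0.43 and 19 rises of at least 2-fold. Over all tested genes, 2.43% rose at least 2-fold. On chromosome 19, where these genes lie in clusters, 158 of 222 rose and 1 fell; elsewhere 125 of 216 rose and 15 fell. Of those between 5 and 50 kb long, 70.2% of 336 rose, against 24.2% of 9357 other genes of that length. ZNF222 (chromosome 19, 44529493 to 44537264) had 14.5, 12.67 and 12.52 CPM in treated cells and 4.91, 4.15 and 4.48 CPM in DMSO cells (1.55 ± 0.14, edgeR adjusted p = 3.41e-07), and ZNF408 had 29.98, 27.2 and 27.1 CPM in treated and 9.002, 10.1 and 10.4 CPM in DMSO cells (1.52 ± 0.09). The zinc finger genes named here had to be called, average 1 CPM or more and have separate groups. The falls were led by longer genes: ZNF521 fell by 1.11 and ZNF423 by 0.76. Intron reads of these genes rose in 24.6% of 435 (median 0.16), against 12.1% of all genes tested on introns. The exon to intron ratio rose in 28.3% of 431, against 8.15% of all genes tested on it. Without parent control replicate 1, 303 rose and 14 fell, and with library size alone 330 and 7. The class was chosen after its values were seen.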
